A study of Papilio machaon with 10 samples.

Results

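The larval life of the swallowtail butterfly Papilio machaon was compared in 2 groups of libraries, the early instars L1, L2 and L3 and the late instars L4 and L5. These 5 larval libraries were taken from the 10 libraries of the series by their stage labels, and the egg, 2 pupal and 2 adult libraries were used only to describe the genes found. RNA came from whole bodies of outbred animals, and larvae were raised on fennel or carrot. The L1 library pooled 10 larvae and the L2 library 5 larvae, while L3, L4 and L5 each came from 1 larva whose sex the labels do not give. The egg library was a pool of 10 eggs, and each pupal and adult library came from 1 animal. Each instar was sequenced once, so the 3 early libraries are 3 different instars and not replicates, and the spread within a group includes the changes from one instar to the next. Pool size also goes with the groups, because both pooled larval libraries are early, so that pooling and instar cannot be told apart.

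A caterpillar grows by moulting. Each instar feeds, separates from its old cuticle and sheds it, under pulses of the steroid ecdysone and in the presence of juvenile hormone, which keeps the moult larval. In the last instar juvenile hormone declines, the larva stops feeding and the next moult leads to the pupa. In many swallowtails young larvae resemble bird droppings and the final instar is coloured differently. Instars can thus differ in cuticle and pigment as well as in size. The expression table lists genes by locus tag without gene names, and 0 of its tags were found in the RefSeq gene table, so no function is given to any gene here. For the same reason the stage labels could not be checked against marker genes.

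Gene expression was deposited as RPKM, a read count scaled by the length of the gene and by the reads of the library. Of 15285 genes, 12941 had a mean RPKM of at least 1 over the 5 instars and were compared on log2(RPKM + 1). The gene just inside that minimum had a mean of 1.000346 and the gene just outside it 0.999424. Reads on genes, worked out from the steps between RPKM values, ran from 23239554 in L5 to 35985078 in L2 among the larval libraries. L2 stood apart from the other instars. Its Spearman correlation with them across genes was 0.674 to 0.725, against 0.817 to 0.890 among the other 4, and with the male pupa it was 0.678, against at most 0.556 for the other instars. L5 differed in another way, with a median of 3.20 on log2(RPKM + 1), against 3.64 to 3.90 in L1 to L4, and with 11270 genes at an RPKM of at least 1, against 12171 to 12691.

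No gene was told apart between early and late instars by a test across all genes. With limma on log2(RPKM + 1), 0 of 12941 genes (0.0%) passed an adjusted p of 0.05, and the smallest adjusted p was 0.958. At an unadjusted p under 0.05 there were 535 genes (4.13%), 386 lower and 149 higher in late instars. The exact permutation test also called 0 genes, but with 3 libraries against 2 its smallest two-sided p is 0.1. That p was reached by 1311 genes (10.1%), and a share of 0.1 is due there without any group difference. A count of 0 in this design does not show that the groups are alike. All gene lists that follow are descriptions of these 5 libraries.

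The boundary between L3 and L4 was not where the instars differed most. Between L3 and L4, 2598 genes (20.1%) were at least 2-fold apart on log2(RPKM + 1), the lowest number of the 10 pairs of instars. The other 5 pairs of an early with a late instar had between 4203 and 5070. Within the early instars the numbers were 4067 between L1 and L2, 3221 between L1 and L3, and 3553 between L2 and L3. Within the late instars, L4 and L5 were apart in 5234 genes (40.4%), the highest number of all pairs, and 4310 of these were lower in L5. Part of that number goes with the lower median of L5. After each library was scaled to a common 75th percentile, L4 and L5 were apart in 4057 genes, L2 and L5 were the most distant pair at 4669, and L3 and L4 remained the closest at 2540.

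**Figure D1:**
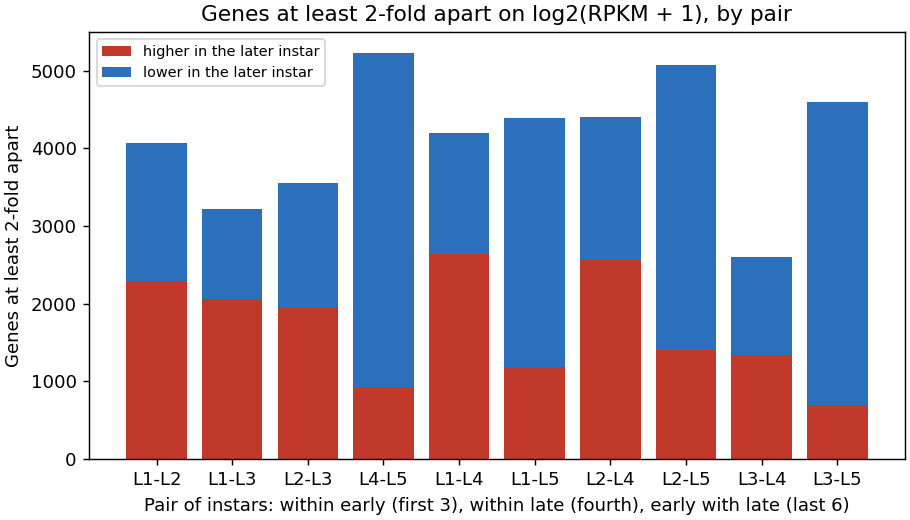
Genes at least 2-fold apart on log2(RPKM + 1) for each of the 10 pairs of instars (y axis, number of genes of 12941). The bar of L3 and L4 is the shortest at 2598 genes, and that of L4 and L5 the tallest at 5234, most of them lower in L5.

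Taken as means of the groups, 8054 of the genes (62.2%) were lower in late instars, and the median difference, late minus early, was -0.18 on the log2 scale. This shift came with L5: without L5 the median was 0.12, and without L4 it was -0.51. It also depended on the scaling. The median was -0.04 with a common 75th percentile and -0.05 with a common RPKM sum. At least 2-fold apart in the means were 2477 genes, 1685 lower and 792 higher in late instars. Many of them overlapped between the groups nonetheless, since the libraries of the lower group lay wholly below the higher group in 932 of the 1685 (55.3%) and in 314 of the 792 (39.6%). Over all genes tested these shares were 15.5% and 4.86%. A choice by the means of the same libraries favours genes without overlap.

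Genes were then counted whose 3 early values all lay on one side of both late values. There were 2011 genes (15.5% of those tested) with all early values above the late values, and 629 genes (4.86%) with all early values below. The excess of early-higher genes depended on the scaling and on L5. With a common 75th percentile the counts were 1737 and 1191, which moved the early-higher share from 76.2% to 59.3%, and with a common RPKM sum they were 1488 and 820 (64.5%). With L4 as the only late library, early-higher genes were in the minority, at 2739 against 4212.

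Most of these gaps were small. A gap of at least 2-fold, from the lowest value of the higher group to the highest of the lower group, was found in 147 early-higher genes (1.14%) and 42 late-higher genes (0.325%). At 4-fold there were 20 and 7 genes, and at 8-fold 4 and 1. The genes just inside the 2-fold limit had gaps of 1.0043 and 1.0004 on the log2 scale, and those just outside it 0.9907 and 0.9972. The median difference of the group means was -2.65 on the log2 scale for the 147 genes, with a range of -6.78 to -1.24. For the 42 genes it was 2.39, with a range of 1.27 to 6.71. Scaling to the 75th percentile gave 106 and 57 genes, of which 100 and 36 were among the 147 and the 42. Without L5 the balance turned, with 352 early-higher and 589 late-higher genes. Without the pooled larval libraries, with L3 as the only early library, 644 early-higher and 233 late-higher genes had such a gap.

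**Figure D2:**
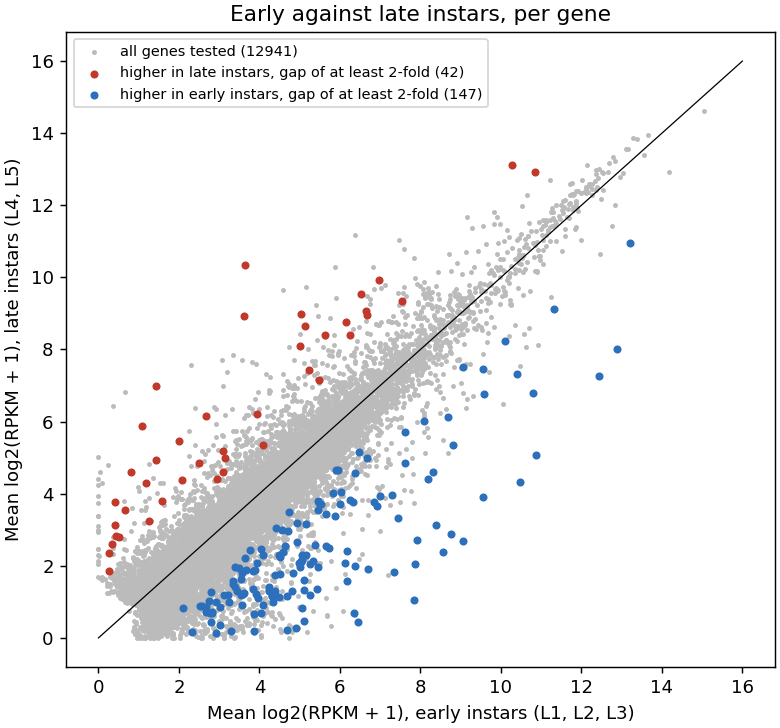
Mean log2(RPKM + 1) of each gene in early instars (x axis) and late instars (y axis), with 12941 genes in grey. The 147 early-higher genes with a gap of at least 2-fold lie below the line of equality and the 42 late-higher genes above it.

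The early-higher genes were abundant in young larvae and scarce later. Together the 147 genes made up 2.94% of the summed RPKM of L1, 9.81% of L2 and 1.90% of L3, but 0.298% of L4 and 0.442% of L5. Their median level was 28.3 RPKM in L1 and 13.4 in L3, with L2 higher at 68.8. In the late instars the median was 3.91 RPKM (L4) and 3.04 (L5). In their highest instar 67 of them reached 100 RPKM and 25 reached 1000 RPKM. These levels are those by which the genes were chosen. At the other end, 5 of the 147 had under 100 reads in their highest instar, the lowest 21 reads, and 11 were listed at 0 in some instar.

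Within the early instars these genes were far from uniform. The highest instar was L2 for 98 genes, L1 for 45 and L3 for 4, and the lowest early instar was L3 for 102 genes. In 85 of the 147 the range among the 3 early instars was wider than the gap that set them apart from the late ones. All 147 were at least 2-fold lower in L4 than in L3 by the way they were chosen. The largest downward step between consecutive instars lay between L3 and L4 in 80 genes and between L2 and L3 in 59. A lower value at every step from L1 to L5 was seen in 21 genes.

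The 42 late-higher genes were at least 2-fold higher in L4 than in L3 by the way they were chosen. Their largest upward step lay between L3 and L4 in 33 genes, between L2 and L3 in 7 and between L4 and L5 in 2, and 8 genes were higher at every step. L4 was the highest instar for 21 and L5 for the other 21. The median of the early instars lay between 6.13 RPKM (L1) and 8.39 RPKM (L3), and that of the late instars was 49.2 RPKM (L4) and 43.1 RPKM (L5). They made up 0.161% to 0.406% of the summed RPKM in early instars and 1.86% and 1.92% in L4 and L5. In their highest instar 21 reached 100 RPKM and 5 reached 1000 RPKM. Under 100 reads in the highest instar were found for 4 of them, and 5 were listed at 0 in some instar.

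**Figure D3:**
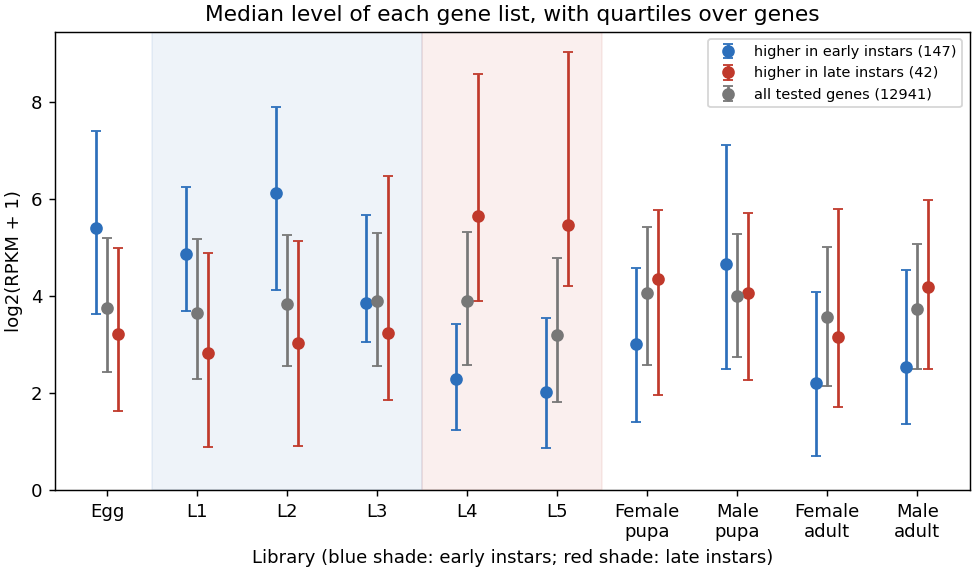
Median log2(RPKM + 1) in each of the 10 libraries for the 147 early-higher genes (blue), the 42 late-higher genes (red) and all 12941 genes tested (grey), with bars from the first to the third quartile over genes. The early-higher genes were also high in the egg, at 5.39, and in the male pupa, at 4.65, while the female pupa was at 3.00.

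The egg, pupae and adults had no part in choosing the genes, so their levels say where else the genes were expressed. In the egg, the library before L1, the early-higher genes had a median of 41.0 RPKM, against 12.5 over all genes tested. Across all genes tested the Spearman correlation of the egg was 0.892 with L1 and 0.803 with L3, against 0.747 with L4 and 0.735 with L5. With L2 it was 0.686. The egg was thus closer to L1 and L3 than to the late instars beyond the genes of this list. Of the 5 non-larval libraries the egg was the highest for 60 of the 147 genes (40.8%), against 18.2% of all genes tested. The male pupa was the highest for another 54 (36.7%, against 18.3%), and the female pupa for 23 (15.6%, against 35.5%). Another 5 genes each were highest in the female and the male adult (3.40%, against 14.0% for either). Most of the 54 genes highest in the male pupa had their larval peak in L2. Among the 98 genes highest in L2, the male pupa was the highest non-larval library for 46 and the egg for 33. Among the 45 highest in L1 it was the male pupa for 6 and the egg for 26. Among the 4 highest in L3 it was the male pupa for 2 and the egg for 1. The egg exceeded the mean of the pupae by a median of 1.17 on the log2 scale, while over all genes it lay 0.39 below. The value rested on the pupa used, at 2.08 against the female pupa alone and 0.26 against the male pupa alone. Each of these stages is 1 library, so that none of these differences could be set against a spread. The egg was a pool, as were L1 and L2, and each pupa and adult was a single animal. Pooling and stage therefore cannot be told apart in these comparisons.

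The pupae differed by sex in the early-higher genes. In 72 of the 147 (49.0%) the male pupa was at least 2-fold above the female pupa, and in 16 (10.9%) at least 2-fold below. Over all genes tested the shares were 14.6% and 14.3%. The genes highest in L2 and those highest in L1 are given apart, since L2 stood apart from the other instars. Among the 98 genes highest in L2, the male pupa had a median of 51.5 RPKM and the female pupa 7.46, and 57 genes were at least 2-fold higher in the male. Among the 45 genes highest in L1, these medians were 12.4 and 4.20 RPKM, with 14 genes at least 2-fold higher in the male. When early-higher genes were chosen from L1 and L3 alone, 270 had a gap of at least 2-fold, and these include all 147. Of the 270, 88 (32.6%) were at least 2-fold higher in the male pupa and 40 (14.8%) at least 2-fold lower. The 123 genes that entered only without L2 are those that a low L2 value had kept off the list. Among these 123, 16 (13.0%) were at least 2-fold higher in the male pupa and 24 (19.5%) at least 2-fold lower. The egg was the highest non-larval library for 78 of the 123 (63.4%) and exceeded the mean of the pupae by a median of 2.95. Sex and individual cannot be told apart here, with 1 pupa of each sex.

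In other stages the 42 late-higher genes were spread over several libraries. The egg was below the mean of the pupae by a median of 0.27 on the log2 scale, against 0.39 over all genes. The male adult was the highest non-larval library for 14 of them (33.3%, against 14.0%), and the female pupa for 12 (28.6%, against 35.5%). The female adult was the highest for 7 (16.7%, against 14.0%), the egg for 6 (14.3%, against 18.2%) and the male pupa for 3 (7.14%, against 18.3%). In 15 of the 42 (35.7%, against 14.3% of all genes) the male pupa was at least 2-fold below the female pupa, and in 9 (21.4%, against 14.6%) at least 2-fold above. The female pupa had a median of 19.2 RPKM for them and the male pupa 15.7, below the 43.1 RPKM of L5. L5 is a library by which they were chosen to be high, and the pupae are not.

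The widest gaps among late-higher genes were those of RR48_12626 and RR48_04591. RR48_12626 had 0.831 RPKM in L1 (6 reads), 0.192 in L2 (2 reads) and 8.06 in L3 (68 reads), against 101 in L4 (949 reads) and 157 in L5 (1110 reads). It was thus low in both pooled larval libraries, intermediate in L3 and high in both late instars, with no overlap. The female pupa was higher still at 430 RPKM and the male pupa had 136, while the adults had 17.0 (male) and 5.75 (female). The egg, also a pool, had 2.41. The difference of the means was 5.55 on the log2 scale (SE 0.92, limma, unadjusted p = 0.00104, adjusted p = 0.958).

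RR48_04591 was higher in each successive instar. The early values were 14.7 RPKM (L1), 37.1 (L2) and 55.0 (L3), and the late values 269 (L4) and 274 (L5). The late values lay close together, and the lowest of them was 4.82-fold above L3 on the RPKM + 1 scale. Outside the larva it had 6.49 RPKM in the egg. The pupae had 19.2 (female) and 8.80 (male) and the adults 7.35 (female) and 11.1 (male), all below L4 and L5. The difference of the means was 3.08 (SE 0.62, limma, unadjusted p = 0.00279, adjusted p = 0.958).

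Among early-higher genes the widest gaps were those of RR48_13394 and RR48_15009. RR48_13394 had 71.8 RPKM in L1, 2382 in L2 and 67.4 in L3, against 3.31 in L4 (131 reads) and 0 in L5. A count of 0 allows up to 3 reads, an RPKM of 0.101 for this gene in L5, for counting error only. L2 stood far above all other libraries, but L1 and L3 alone were also clear of the late instars. The gene had 194 RPKM in the egg and 198 in the male pupa, against 0.681 in the female pupa. The adults had 5.42 (female) and 1.84 (male). The difference of the means was -6.78 (SE 1.70, limma, unadjusted p = 0.00773, adjusted p = 0.958).

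RR48_15009 had 8782 RPKM in L1, 9011 in L2 and 2106 in L3. It had 168 RPKM in L4 and 139 in L5, so that the lowest early value was 12.5-fold above the highest late one on the RPKM + 1 scale. The male pupa had 4248 RPKM and the egg 3819, while the female pupa had 2.28 and the adults 7.69 (female) and 30.8 (male). The difference of the means was -5.16 (SE 0.77, limma, unadjusted p = 0.000612, adjusted p = 0.958). Both early-higher genes were therefore high in egg and male pupa and low in the female pupa and in adults.

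**Figure D4:**
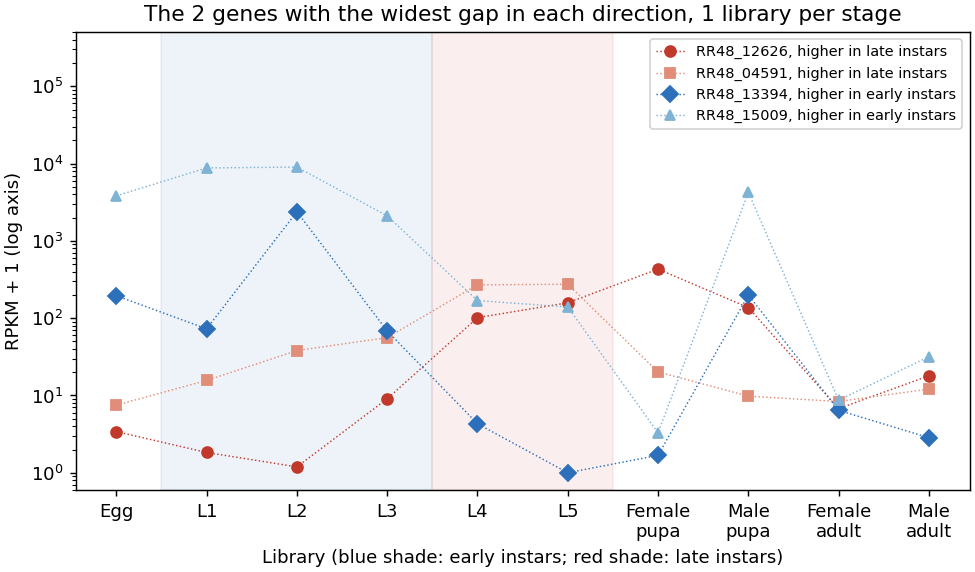
RPKM + 1 on a log axis in each of the 10 libraries for the 2 genes with the widest gap in each direction, 1 library per stage and no error bars. RR48_12626 and RR48_04591 lie higher in L4 than in L3, while RR48_13394 and RR48_15009 lie lower, and both of the latter reach at least 198 RPKM in the male pupa.

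Complete switches between the groups were rare. At an RPKM of at least 1 in every library of one group and under 0.1 in every library of the other, over all 15285 genes and without the minimum on the mean, 0 genes were on only in early instars and 1 gene only in late instars. This 1 gene had 1 read in L1 and 0 in L2 and L3, against 50 reads in L4 (1.83 RPKM) and 35 in L5 (1.71 RPKM). It was far higher after the larval stages, at 203 RPKM (female) and 20.2 RPKM (male) in pupae and 72.1 RPKM (female) and 55.2 RPKM (male) in adults. With limits of 5 and 0.5 RPKM, 4 genes were on only in early instars and 0 only in late instars.

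Early-higher genes often had neighbouring locus tags. Of the 147 genes, 31 had a consecutive tag in the same list, and the longest run was 3 tags. Among the 237 tested genes with a tag next to a member, 13.1% were themselves members, against 1.14% of all genes tested. For the late-higher list 2 of 73 such neighbours were members (2.74%, against 0.325%). Whether tags follow the order of genes along the scaffolds was not tested.

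The 10 most abundant genes held 18.4% of the summed RPKM in L1, 15.2% in L2 and 13.0% in L3, against 12.9% in L4 and 12.3% in L5. The 3 early shares all lay above the late shares. The difference of the means, late minus early (-2.93 percentage points), had p = 0.2 in the exact permutation test, two-sided (adjusted p = 0.5 over 5 such measures), a test that cannot go under 0.1 here. The number of genes that hold 50% of the summed RPKM was 92 in L1, 123 in L2 and 132 in L3, and 112 in both late instars (exact permutation test, p = 1).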

How the data were processed

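RNA from whole animals was sequenced as poly-A libraries on an Illumina instrument, 1 library per stage. The authors mapped the reads to their genome assembly, and the submitters' processing notes name TopHat 1.0.12 and 1.4.1. The counting tool is not given in the sources used here. The authors deposited 1 table of RPKM values, and all its columns were matched to libraries by name.

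Reads behind each value were worked out as the smallest whole numbers that fit the steps between libraries. The step was tested on simulated data. These reads describe depth and entered no count model.

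For the difference between late and early instars, limma 3.58.1 (R 4.3.3, eBayes with an intensity trend) was fitted to log2(RPKM + 1), with Benjamini-Hochberg adjustment over all 12941 genes. A fold change on this scale understates that of low genes. The fit was tested on simulated data, where it missed the changes at the spread of these libraries and found most of them only at a smaller spread. Since the files pair no locus tag with a name, only the 2 tags with the widest gap are printed per direction. The comparison, lists and tests were chosen with earlier results of these data known. Python 3.11.15, numpy 2.4.6, pandas 2.3.3, scipy 1.17.1 and matplotlib 3.10.9 were used. The alternatives were another pseudocount, 2 scalings, 2 filters, leaving out libraries, limma without the trend or on all 10 libraries, and an exact permutation test.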

Additional observations from a re-analysis of the deposited data

Results flagged for a closer look

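L2 lay far from the other instars in 1 of 6 measures of the 5 larval libraries. Its mean Spearman correlation with the other 4 instars was 0.702, and the next lowest library is separated from it by 0.733 of the whole range, above Dixon's critical value of 0.71. Chance marks about 1 in 20 groups in each measure, and 6 measures were looked at. The counts without L2 were 270 early-higher and 75 late-higher genes with a gap of at least 2-fold.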

How the results depend on the processing

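No paired analysis was possible because each instar is 1 library and the libraries of the groups share no number. The count of genes that passed limma was 0 under all alternatives but one: with only the libraries of 1 larva each (L3 against L4 and L5) it was 32, in a fit whose spread comes from L4 and L5 alone, with the single L3 library assumed to vary like them. Over the other alternatives the count at an unadjusted p under 0.05 ran from 309 to 1121 for limma and was 0 in the exact permutation test, which cannot go under 0.1.

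In these 3 libraries of 1 larva, 5446 genes were early-higher and 1655 late-higher without overlap, and 644 and 233 with a gap of at least 2-fold. Scaling to the 75th percentile moved the late-higher genes without overlap to 1191. A pseudocount of 0.1 moved the early-higher genes with a 2-fold gap to 243, and a gap of 4-fold left 20 and 7. Genes on only in early instars numbered 4, and only in late instars 0, with limits of 5 and 0.5 RPKM. With 1 library left out, fewer values have to agree, so that counts rise by construction. Without overlap they ran from 2596 (without L3) to 6745 (without L4) for early-higher genes and from 932 (without L2) to 4212 (without L5) for late-higher genes. With a 2-fold gap they ran from 237 (without L1) to 1327 (without L4) and from 75 (without L2) to 589 (without L5). The median difference over all genes ran from -0.51 (without L4) to 0.12 (without L5), where it reversed. The direction of the 4 named genes held in all alternatives. They were chosen for the widest gaps without overlap, so leaving out a library or changing the pseudocount could not have reversed them. For the 352 early-higher genes chosen without L5 the median difference of egg and pupae was 0.77, against 1.17 for the 147. It was 2.09 for the 270 genes chosen without L2 and 1.31 for the 106 chosen after scaling to the 75th percentile.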
